A study of Mus musculus with 48 samples.

Results

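The HIN-200 genes are a family of interferon-inducible genes that lie side by side on mouse chromosome 1. Members were taken by symbol from the table of 55487 genes, and all 10 were present: Ifi202b, Mndal, Ifi203, Ifi204, Ifi205, Ifi206, Ifi207, Ifi208, Ifi209 and Ifi213. They were chosen with values of these data known, and the rule points to the contrast between the 2 mouse models. Their differences between the models are therefore described and carry no test.

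Proteins of this family, also called PYHIN proteins, bind DNA through a HIN domain, and most of them carry a pyrin domain that joins them to partner proteins. Interferons induce many of the genes, and myeloid and lymphoid cells express them strongly. Aim2, a neighbour of the same family, assembles an inflammasome on cytosolic DNA, and p202, the product of Ifi202b, lacks a pyrin domain and can hold Aim2 back. The level of Ifi202b is known to differ between inbred mouse strains, and the gene has been studied as a candidate in mouse models of lupus.

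RNA came from thoracic mammary glands. Every animal carries MMTV-rtTA, in which the mouse mammary tumour virus promoter, active mainly in mammary epithelium, drives an activator that needs doxycycline, together with 1 of 2 responder transgenes. The Esr1 model (MMTV-rtTA/tet-op-Esr1) expresses estrogen receptor alpha on induction, and the CYP19A1 model (MMTV-rtTA/tet-op-CYP19A1) expresses aromatase, which makes estrogens. Each model has the same 8 groups of 3 libraries: uninduced at 12, 18 and 24 months of age, induced for 1 week at 12 or 18 months, for 6 or 12 months at 24 months, and for 18 months at 30 months. The 48 libraries are labelled biological replicates, but no label says whether they are different mice. The p-values below reflect only how much these libraries vary, which may be technical. No strain is named, and no group lacks a responder transgene. A difference in strain background between the models cannot be told apart from the transgene they carry.

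The values are TPM, transcripts scaled to a fixed total, which are corrected for transcript length, so the depth of a library is unknown beyond the stated minimum of reads. The number of genes at 1 TPM or more ran from 11028 to 17605. Genes resembling ribosomal RNA (CT010467.1, AY036118 and Lars2) had a median of 0.0752% of TPM. They exceeded 10% in 9 libraries, 7 of the CYP19A1 and 2 of the Esr1 model, which lowers every other TPM there. All 3 CYP19A1 libraries induced for 1 week at 12 months were among them. Factors that offset this by the median ratio over genes ran from 0.312 to 1.46, and values divided by them are called rescaled. Epithelial markers of the gland were present in both models, with Krt8 at a mean of 91.6 TPM in the Esr1 and 51.5 TPM in the CYP19A1 model. In whole-gland RNA, fewer cells of a type and less RNA per cell cannot be told apart.

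The 10 genes span 563.3 kb of chromosome 1, from 173468485 to 174031810 (mm10, positions from GENCODE M21). In order along the chromosome they are Ifi206, Ifi213, Ifi209, Ifi208, Ifi207, Ifi204, Mndal, Ifi203, Ifi202b and Ifi205. Ifi202b (ENSMUSG00000026535.9) lies on the minus strand from 173962568 to 173982744. The annotated span of Mndal (ENSMUSG00000090272.8, 173849126 to 173942491, minus strand) covers Ifi211 and all but the first bases of Ifi203, which are on the same strand.

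Promoters are shown for the members on which the contrast between the models turns, and for the near copies of them that behaved otherwise. RefSeq (GRCm38.p6) held promoter windows, 250 bases before to 50 after a transcript start, for 9 of the 10 members. Capitals mark the core of the interferon-stimulated response element, written here as GAAA, any 2 bases and GAAA, or the gamma-activated site, TTC, any 3 bases and GAA, on either strand. The windows are those of the reference genome, not of these mice.

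Ifi202b, chr1:173982795-173983094, minus strand: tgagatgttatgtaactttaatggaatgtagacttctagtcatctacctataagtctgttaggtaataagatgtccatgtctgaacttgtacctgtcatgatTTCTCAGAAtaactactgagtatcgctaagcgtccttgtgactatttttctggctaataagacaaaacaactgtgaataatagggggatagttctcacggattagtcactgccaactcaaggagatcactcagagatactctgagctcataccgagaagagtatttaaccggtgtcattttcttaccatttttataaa

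Mndal, chr1:173880138-173880437, minus strand: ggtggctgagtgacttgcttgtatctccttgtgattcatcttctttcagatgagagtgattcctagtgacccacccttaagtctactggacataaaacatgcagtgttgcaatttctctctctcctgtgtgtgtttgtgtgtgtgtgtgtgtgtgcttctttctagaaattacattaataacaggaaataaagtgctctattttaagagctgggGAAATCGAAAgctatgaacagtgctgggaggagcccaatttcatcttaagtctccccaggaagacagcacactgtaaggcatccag

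Ifi203, chr1:173942443-173942742, minus strand: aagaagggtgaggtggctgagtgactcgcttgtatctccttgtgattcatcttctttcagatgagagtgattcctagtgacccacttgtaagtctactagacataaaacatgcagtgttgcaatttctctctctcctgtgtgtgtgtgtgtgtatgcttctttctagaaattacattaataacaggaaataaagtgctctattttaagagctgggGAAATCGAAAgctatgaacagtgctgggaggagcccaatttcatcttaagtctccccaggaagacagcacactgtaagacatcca

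Ifi205, chr1:174031706-174032005, minus strand: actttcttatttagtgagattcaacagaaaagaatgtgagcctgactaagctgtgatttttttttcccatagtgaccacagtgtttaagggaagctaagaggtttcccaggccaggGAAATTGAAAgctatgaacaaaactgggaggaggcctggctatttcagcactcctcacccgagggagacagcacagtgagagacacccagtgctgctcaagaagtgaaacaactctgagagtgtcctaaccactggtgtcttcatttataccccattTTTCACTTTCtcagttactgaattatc

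Ifi206, chr1:173491269-173491568, minus strand: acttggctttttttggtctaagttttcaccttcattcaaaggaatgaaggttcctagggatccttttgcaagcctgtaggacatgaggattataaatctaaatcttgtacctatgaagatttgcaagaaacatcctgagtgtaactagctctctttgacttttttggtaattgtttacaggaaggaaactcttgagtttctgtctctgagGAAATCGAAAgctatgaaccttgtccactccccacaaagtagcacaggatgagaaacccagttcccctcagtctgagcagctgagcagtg

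Ifi208, chr1:173673415-173673714, plus strand: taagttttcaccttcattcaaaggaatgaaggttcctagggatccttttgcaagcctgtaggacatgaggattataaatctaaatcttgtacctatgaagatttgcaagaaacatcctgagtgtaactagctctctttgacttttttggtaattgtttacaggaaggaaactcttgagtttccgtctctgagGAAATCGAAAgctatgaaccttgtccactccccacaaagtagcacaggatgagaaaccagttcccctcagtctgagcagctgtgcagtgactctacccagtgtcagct

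Ifi213, chr1:173599223-173599522, minus strand: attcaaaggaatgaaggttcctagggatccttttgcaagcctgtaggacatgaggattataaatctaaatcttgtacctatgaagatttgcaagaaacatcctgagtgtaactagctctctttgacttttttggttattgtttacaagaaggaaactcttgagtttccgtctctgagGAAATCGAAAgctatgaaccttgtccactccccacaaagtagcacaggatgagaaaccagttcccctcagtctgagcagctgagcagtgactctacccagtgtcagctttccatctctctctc

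The response element core was found for 7 of the 9 members with a window: Mndal, Ifi203, Ifi205, Ifi206, Ifi207, Ifi208 and Ifi213. It occurs in 3.99% of the 27025 genes in the RefSeq table and in 3.44% of the windows. The Ifi202b window holds no such core and 1 gamma-activated site, a motif present in 9.55% of genes and in 8.3% of windows. The windows fall into near copies. Mndal and Ifi203 have 2 windows each, of which 1 is shown. The Mndal window shown matched the Ifi203 window shown at 282 of 289 aligned bases. The other Mndal window aligned with that Ifi203 window over 70 bases only. That of Ifi208 matched those of Ifi206 at 279 of 281 and of Ifi213 at 282 of 285 aligned bases. The motif matches describe letters only and say nothing of binding.

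Ifi202b was the member highest in the CYP19A1 model and almost silent in the Esr1 model. In the 24 Esr1 libraries it ranged from 0.01 to 1.3 TPM, with a median of 0.32 TPM. In the 24 CYP19A1 libraries it ranged from 5.18 to 37.35 TPM, with a median of 16.92 TPM. No CYP19A1 library came down to the level of any Esr1 library. The means were 0.522 ± 0.394 TPM (SD, n = 24) and 16.8 ± 7.34 TPM (SD, n = 24), a ratio of 32.2.

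The same held in each of the 8 pairs of groups. At 12 months without induction, the CYP19A1 replicates had 5.18, 20.04 and 11.97 TPM of Ifi202b and the Esr1 replicates 0.30, 1.3 and 0.63 TPM. At 18 months they had 15.29, 16.94 and 31.77 TPM against 0.77, 0.96 and 0.75 TPM. At 24 months they had 17.24, 16.90 and 13.69 TPM against 0.01, 0.24 and 0.30 TPM. Uninduced glands of both models thus already stood apart at 12, 18 and 24 months, the ages with an uninduced group. After 1 week of induction, the CYP19A1 glands had 6.66, 6.25 and 15.47 TPM at 12 months and 17.98, 20.11 and 37.35 TPM at 18 months. The matching Esr1 glands had 0.57, 0.71 and 1.00 TPM and 0.79, 1.11 and 1.26 TPM. After 6 and 12 months of induction at 24 months, CYP19A1 means were 13.7 ± 5.48 and 20.9 ± 2.93 TPM (SD, n = 3). The Esr1 means were 0.173 ± 0.015 and 0.31 ± 0.026 TPM (SD, n = 3). At 30 months they were 15.5 ± 3.11 and 0.123 ± 0.051 TPM (SD, n = 3).

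Mndal, which encodes a protein like the myeloid nuclear antigen, went the other way. It ranged from 10.5 to 35.32 TPM in the Esr1 libraries (median 19.58 TPM) and from 0.67 to 7.45 TPM in the CYP19A1 libraries (median 3.505 TPM), again with no overlap. Group means of Mndal ran in the Esr1 model from 13.5 ± 3.17 TPM after 6 months of induction to 28.5 ± 7.08 TPM after 1 week at 12 months (SD, n = 3). In the CYP19A1 model they ran from 1.79 ± 0.501 TPM after 1 week at 12 months to 5.32 ± 1.85 TPM after 1 week at 18 months (SD, n = 3). Its ratio of means, Esr1 over CYP19A1, was 5.75.

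Ifi213 was the third gene without overlap. It ranged from 0.32 to 4.25 TPM in the Esr1 libraries (median 1.895 TPM) and from 0.02 to 0.21 TPM in the CYP19A1 libraries (median 0.09 TPM). Of all 20209 genes tested, 0.208% had 24 libraries of a model all above the 24 of the other. As the members were chosen for this contrast, nothing is read from their share.

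Ifi205, whose product regulates expression of the inflammasome adaptor Asc in macrophages, was the most abundant member in the Esr1 model. It ranged there from 13.14 to 54.62 TPM (median 26.485 TPM), against 2.02 to 24.44 TPM (median 6.495 TPM) in the CYP19A1 model. The groups of 3 did not overlap in 7 of the 8 pairs, and the exception was 18 months with 1 week of induction. There CYP19A1 replicate 3 had 24.44 TPM beside 5.65 and 8.74 TPM in replicates 1 and 2. That library also had the highest Ifi204 (25.67 TPM), Ifi207 (26.35 TPM), Mndal (7.45 TPM) and Ifi202b (37.35 TPM) of its model. Its 16 macrophage markers summed to 931 TPM, the highest of the CYP19A1 model, against 267 and 261 TPM in the other 2 replicates. The part of these cells in its values was not tested.

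Ifi206 was scarce and lay mostly in the Esr1 model. It ranged from 0.16 to 1.66 TPM there and from 0 to 0.21 TPM in the CYP19A1 model, where 4 libraries list it at 0. Ifi208, the near copy of both Ifi206 and Ifi213 in the promoter windows shown, did not share their direction. It ranged from 0.09 to 0.95 TPM in the Esr1 model (median 0.395 TPM) and from 0.17 to 1.48 TPM in the CYP19A1 model (median 0.59 TPM). Its groups of 3 overlapped in 7 of 8 pairs, and in the other pair, at 18 months with 1 week of induction, the CYP19A1 libraries were higher.

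Ifi203, Ifi204, Ifi207 and Ifi209 overlapped widely. Ifi203 ranged from 6.60 to 23.59 TPM in the Esr1 model and from 3.26 to 19.53 TPM in the CYP19A1 model, with medians of 13.015 and 10.9 TPM. Ifi204, which encodes the DNA sensor p204, had medians of 12.9 and 8.45 TPM, and Ifi207 had 8.27 and 4.83 TPM. Ifi209 had 2.065 and 0.71 TPM. Between 1 and 3 of the 8 pairs of groups did not overlap for each of these 4 genes, always with the Esr1 libraries higher. The pair induced for 1 week at 12 months was among them for all 4, and was the only such pair for Ifi203 and Ifi204. Its 3 CYP19A1 libraries had 43.7%, 49.8% and 36.7% of TPM on ribosomal RNA-like genes, which lowers every other TPM there. The share of all genes that separate in a pair was not counted. The shared direction is therefore not read as a trait of these 4 genes.

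**Figure D1:**
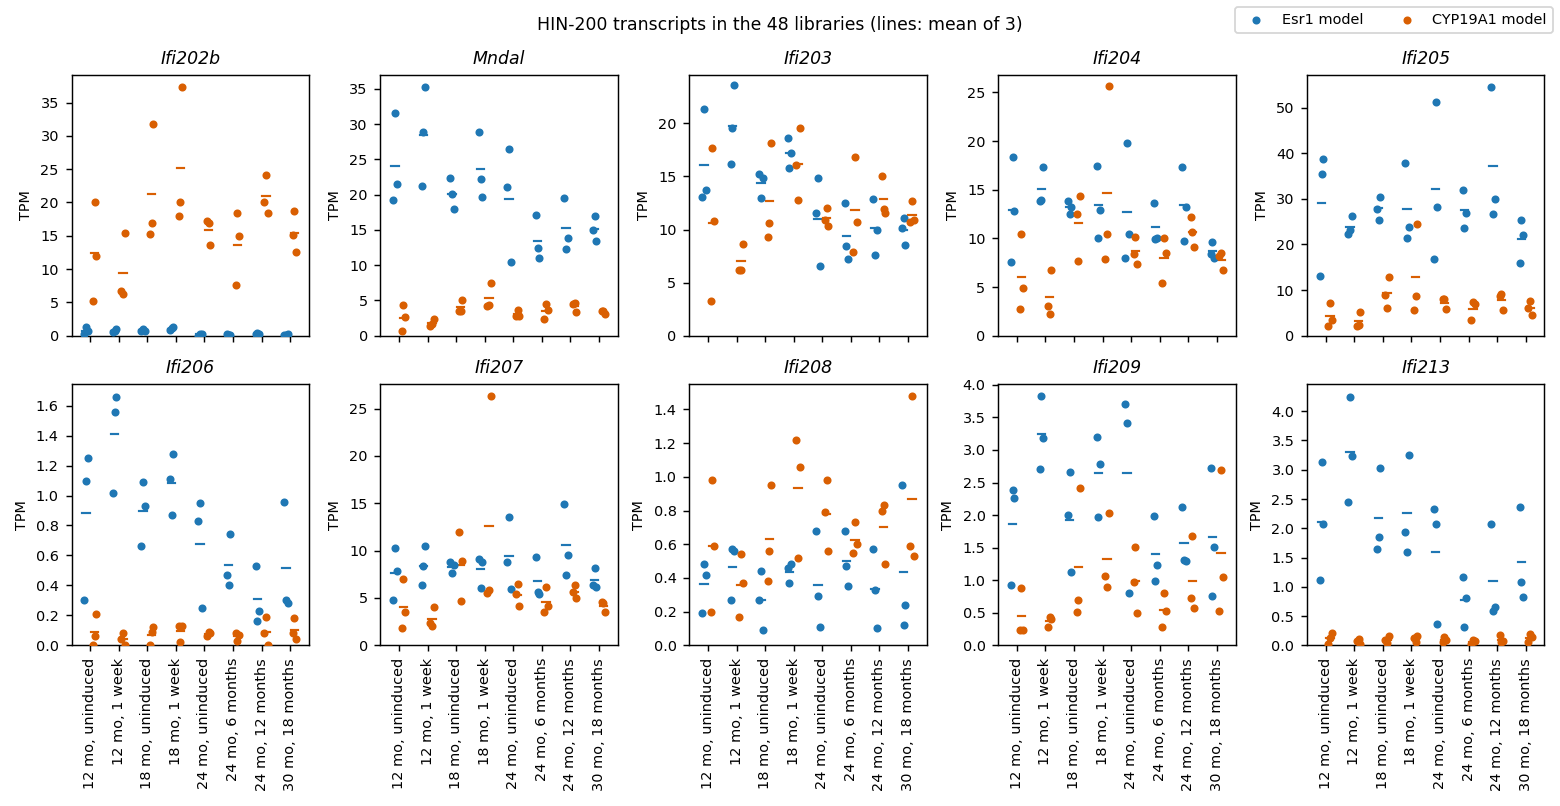
TPM (vertical axis) of each HIN-200 member in the 8 groups of age and induction (horizontal axis), with 1 point per library and a line at the mean of 3, for the Esr1 (blue) and CYP19A1 (orange) models. Ifi202b is at or below 1.3 TPM in every Esr1 library and at or above 5.18 TPM in every CYP19A1 library, and Mndal and Ifi213 separate in the other direction.

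By median TPM, the order of the members differed between the models. In the Esr1 model it was Ifi205, Mndal, Ifi203, Ifi204, Ifi207, Ifi209, Ifi213, Ifi206, Ifi208 and Ifi202b. In the CYP19A1 model it was Ifi202b, Ifi203, Ifi204, Ifi205, Ifi207, Mndal, Ifi209, Ifi208, Ifi213 and Ifi206. Ranges of neighbours in either order overlapped, except Ifi207 with Ifi209 in the Esr1 model. Ifi202b moved from last place to first, and Mndal from the second to the sixth.

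The size of each difference was taken as the mean over the 8 pairs of groups in log2(TPM + 1), Esr1 minus CYP19A1, with the standard error (SE) of a fit of 1 mean per group. It was -3.47 (SE 0.12) for Ifi202b, 2.23 (SE 0.11) for Mndal, 1.95 (SE 0.15) for Ifi205 and 1.28 (SE 0.10) for Ifi213. It was 0.71 for Ifi209, 0.69 for Ifi206, 0.55 for both Ifi207 and Ifi204, 0.20 for Ifi203 and -0.27 for Ifi208. The median over all 20209 genes was 0.10. On this scale the changes of scarce genes are understated. Rescaled, the differences were -3.58 for Ifi202b, 2.12 for Mndal, 1.82 for Ifi205, 1.21 for Ifi213 and 0.06 for Ifi203, and all 10 kept their sign.

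The sign held in all 8 pairs of groups for Ifi202b, Mndal, Ifi204, Ifi205, Ifi206, Ifi209 and Ifi213. For Ifi202b the pairs ran from -4.06 to -2.47, and for Mndal from 1.64 to 3.39. Ifi203 ran from -0.34 to 1.38, with its highest values at 12 months, where 5 of the 6 CYP19A1 libraries had over 10% of TPM on ribosomal RNA-like genes. Without the 9 such libraries its difference was -0.10. The libraries of 12 and 18 months are titled in another way than those of 24 and 30 months, so each set was also taken alone. Ifi202b differed by -3.11 in the younger and -3.83 in the older libraries, Mndal by 2.60 and 1.86, and Ifi205 by 1.98 and 1.92. Ifi203 differed by 0.62 and -0.22.

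**Figure D2:**
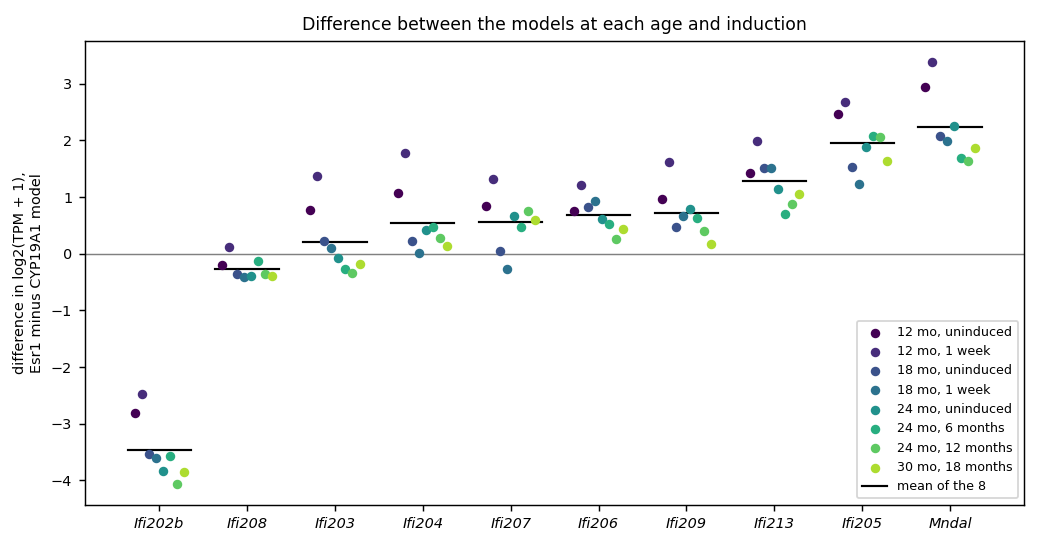
Difference in log2(TPM + 1), Esr1 minus CYP19A1 model (vertical axis), for each member (horizontal axis), with 1 point for each of the 8 pairs of groups matched by age and induction and a line at their mean. All 8 points of Ifi202b lie between -4.06 and -2.47 and all 8 of Mndal between 1.64 and 3.39, while those of Ifi203 lie on both sides of 0.

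Proportions among the members do not depend on how a library is scaled. Ifi202b made up 24.4% to 35.9% of the summed TPM of the 10 genes in the CYP19A1 libraries and at most 1.38% in the Esr1 libraries. Mndal made up 4.12% to 7.61% in the CYP19A1 and 15.6% to 31.7% in the Esr1 libraries, and Ifi205 9.05% to 16.95% and 21.4% to 44.5%. None of these 3 ranges overlapped between the models. The shares of Ifi204 overlapped, with means of 15.7 ± 1.98% in the CYP19A1 and 14.2 ± 1.43% in the Esr1 model (SD, n = 24). Those of Ifi207 were 10.2 ± 2.76% and 9.42 ± 1.49% (SD, n = 24).

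Ratios of 2 members within a library are also free of its scaling. Mndal over Ifi203, whose promoter windows shown above are near copies, was 1.49 ± 0.151 in the Esr1 model (SD, n = 24, range 1.14 to 1.84). It was 0.292 ± 0.048 in the CYP19A1 model (range 0.206 to 0.384). Ifi202b over Ifi203 was 0.036 ± 0.021 and 1.42 ± 0.295. Ifi205 over Ifi204 was 2.26 ± 0.453 and 0.783 ± 0.101, and Ifi207 over Ifi204 was 0.668 ± 0.136 and 0.65 ± 0.141. The first 3 ratios did not overlap between the models, and the last did. Ifi206 over Ifi208, the other near copies, ranged from 0.485 to 10.3 in the Esr1 and from 0 to 0.356 in the CYP19A1 model, also without overlap. Ifi213 over Ifi209 overlapped, at 0.323 to 2.68 and 0.03 to 0.913. The summed TPM of the 10 genes was 88.3 ± 23.2 TPM in the Esr1 and 55.7 ± 25.9 TPM in the CYP19A1 model (SD, n = 24), with overlapping ranges.

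**Figure D3:**
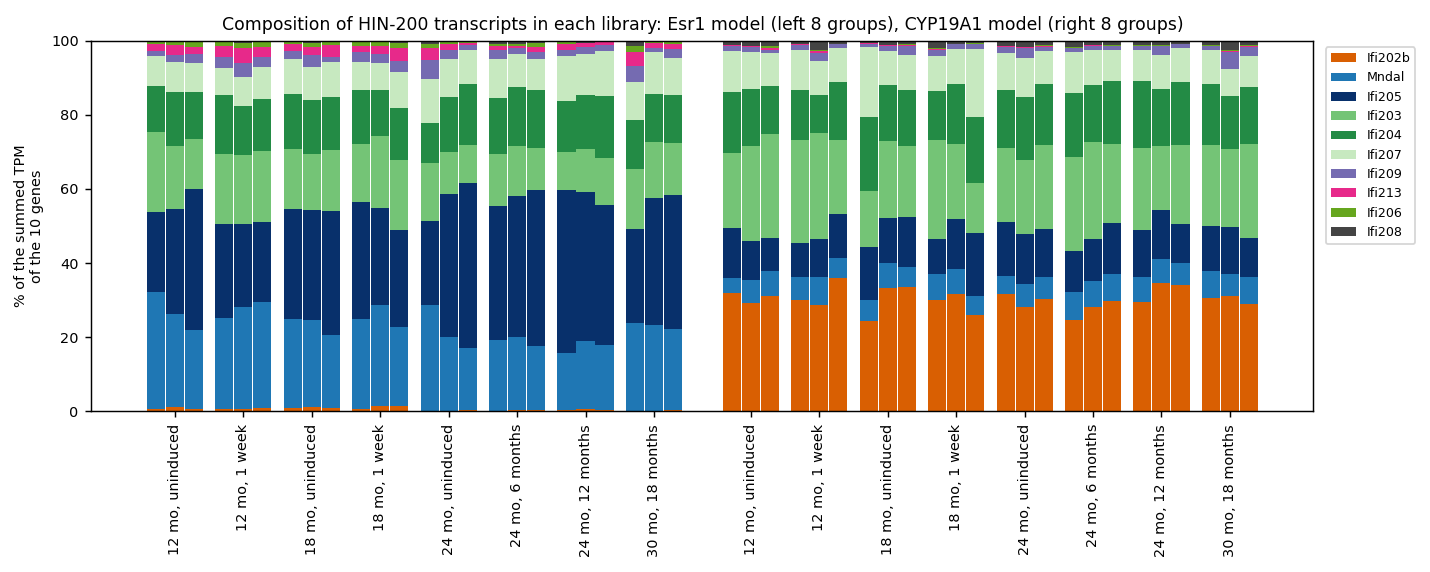
Share of each member in the summed TPM of the 10 HIN-200 genes (vertical axis, percent), as 1 stacked bar per library, grouped by age and induction, with the Esr1 model in the left 8 groups and the CYP19A1 model in the right 8. The Ifi202b share at the foot of the bars is at most 1.38% on the left and at least 24.4% on the right.

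The genes resemble each other, so reads of 75 bases may fit more than 1 of them. Of all windows of 75 bases in the annotated transcripts of Ifi202b, 0% occurred in transcripts of another gene. The share was 11.1% for Mndal, 5.7% for Ifi203, 16.6% for Ifi205, 8.1% for Ifi213, 17.6% for Ifi206, 11.8% for Ifi208, 13.2% for Ifi204, 2.8% for Ifi207 and 23.1% for Ifi209. Ifi205 shared 16.6% of its windows with Ifi211 and 4.0% with Mndal, and Mndal shared 4.7% with Ifi211, 4.5% with Ifi205 and 3.5% with Ifi203. For Ifi209 the partner was Ifi214, and for Ifi206 the largest was Ifi208 (7.9%). How the reads of these mice, whose sequence may depart from the reference, were divided among the genes was not tested.

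Whether induction or age changed the members was tested with limma over all 20209 genes. The rule does not use these contrasts, although earlier results of these data were known when the members were chosen. The threshold was a Benjamini-Hochberg adjusted p under 0.05. All 10 members entered, but Ifi206 and Ifi213 reached 1 TPM only in Esr1 libraries and Ifi208 only in 3 CYP19A1 libraries. In the model where a member lies near 0, as Ifi206 and Ifi213 do in the CYP19A1 and Ifi202b and Ifi208 in the Esr1 model, log2(TPM + 1) leaves little room for a change, and a member that did not pass there is not shown to be unchanged. Averaged over the 4 induced groups with an uninduced group of their age, 0 of 10 members passed in the Esr1 model and 0 of 10 in the CYP19A1 model (0% of all genes in each). At an unadjusted p under 0.05 the counts were also 0 and 0. The Ifi202b change was 0.09 (95% interval -0.28 to 0.46) with induced Esr1 and 0.01 (-0.36 to 0.37) with induced CYP19A1. That of Mndal was -0.06 (-0.41 to 0.29) and 0.14 (-0.20 to 0.49). The 95% intervals of all 10 members lay between -0.47 and 0.49 for Esr1 and between -0.54 and 0.49 for CYP19A1, on the log2 scale. The difference between the models in this response was tested itself, with 0 of 10 members past the test (0% of all genes, 0 members at an unadjusted p under 0.05).

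Single induction comparisons gave 0 of 10 members in each of the 8. In Esr1 glands given 1 week of induction at 12 months, where 0.0099% of all genes passed, Ifi206 was the 1 member at an unadjusted p under 0.05. It had 1.02, 1.56 and 1.66 TPM with and 0.30, 1.10 and 1.25 TPM without induction (log2 change 0.39, limma adjusted p = 0.754). The other 7 had 0 members at an unadjusted p under 0.05. Of all genes, 0% passed in Esr1 glands at 18 months and after 6 months of induction, and 0.00495% after 12 months. In CYP19A1 glands 0% passed after 1 week at 12 or 18 months and after 6 months, and 0.0198% after 12 months. When replicate 1 of the CYP19A1 group uninduced at 12 months was left out, the library richest in ribosomal RNA-like genes (67.2% of TPM), 3 members were called lower after 1 week. These were Ifi203 (-0.91, limma adjusted p = 0.00925), Ifi202b (-0.77, adjusted p = 0.0363) and Mndal (-0.67, adjusted p = 0.0449). In that setting 61.5% of all genes were called, in a comparison whose 3 induced libraries all have over 10% of TPM on those genes.

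From 12 to 24 months without induction, 0 of 10 members passed in the Esr1 model (0.574% of all genes, 0.327% higher and 0.247% lower) and 0 of 10 in the CYP19A1 model (4.24%, with 4.18% higher and 0.0643% lower). At an unadjusted p under 0.05 there were 0 in each. The median change over all genes in the CYP19A1 model was 0.22 as TPM and 0 rescaled. Of its uninduced libraries at 12 months, replicates 1 and 3 had 67.2% and 22.2% of TPM on ribosomal RNA-like genes. At 24 months replicate 3 had 15.6%. Ifi205 had 2.22, 7.23 and 3.49 TPM at 12 and 7.94, 8.09 and 5.78 TPM at 24 months in the CYP19A1 model (0.74, SE 0.42, limma adjusted p = 0.44). Rescaled, this change was 0.43. Ifi202b lay at 0.743 ± 0.51 TPM at 12 and 0.183 ± 0.153 TPM at 24 months in the Esr1 model (SD, n = 3, log2 change -0.53, limma adjusted p = 0.825). Its difference in age change between the models was -1.03 as TPM (95% interval -1.96 to -0.10, limma adjusted p = 0.766) and -0.62 rescaled (adjusted p = 0.95). As TPM, Ifi202b was the 1 member at an unadjusted p under 0.05 in that test, which 0 of 10 members passed (0.0396% of all genes). Over all inductions, Ifi202b ranged from 0.30 to 1.3 TPM in the 12 Esr1 libraries of 12 and 18 months and from 0.01 to 0.34 TPM in the 12 of 24 and 30 months. The naming pattern of the libraries changes at the same boundary, and the part of a batch was not tested.

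Glands of 30 months, induced for 18 months, were set against glands of 24 months, induced for 12 months. Of the members 0 of 10 passed in the Esr1 model (0.139% of all genes, 0.129% lower) and 0 of 10 in the CYP19A1 model (0%), with 0 at an unadjusted p under 0.05 in each. Ifi205 had 15.89, 25.25 and 22.12 TPM at 30 and 54.62, 26.74 and 29.99 TPM at 24 months in the Esr1 model (-0.74, SE 0.42, limma adjusted p = 0.342). Rescaled, this change was -0.255. The median change over all genes in the Esr1 model was -0.358 as TPM and -0.005 rescaled. Replicate 3 of its 30-month group had 50.3% of TPM on ribosomal RNA-like genes. The intervals of all members ran from -1.59 to 0.77 in the Esr1 and from -1.17 to 0.91 in the CYP19A1 model, so changes of about that size would not have been told from 0.

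**Figure D4:**
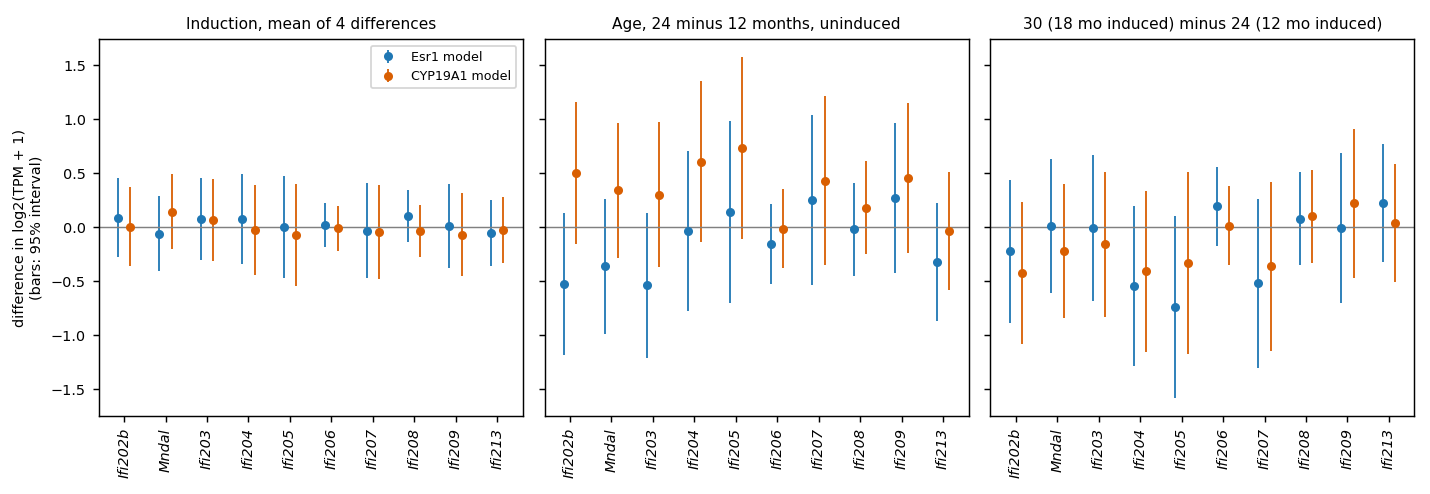
Difference in log2(TPM + 1) (vertical axis) of each member (horizontal axis), with its 95% interval, for induction averaged over 4 comparisons, for 24 minus 12 months without induction, and for 30 minus 24 months with long induction, in the Esr1 (blue) and CYP19A1 (orange) models. Every one of these intervals includes 0.

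The nearest genes were set beside the members, to see how far along chromosome 1 the models differed. Over all genes, limma called 4922 of 20209 (24.4%) in the contrast between the models, 3873 of them higher in the Esr1 and 1049 in the CYP19A1 model. After rescaling there were 8043, with 4265 and 3778. As TPM, 8892 genes were higher and 438 lower in the Esr1 model in libraries of 12 and 18 months alone. In those of 24 and 30 months 388 were higher and 986 lower. Rescaled, the split was nearly even at both ages. Of all genes 18.2% were higher and 15.6% lower at the younger ages, and 8.59% and 7.82% at the older ages. Inside the span of the members, 2 other genes were tested. The pseudogene Ifi203-ps was higher in the CYP19A1 model (5.03 against 2.01 TPM, log2 difference -0.97, SE 0.10, adjusted p = 2.45e-09). Ifi211 lay at 6.27 against 5.66 TPM (-0.04, adjusted p = 0.872). Aim2, which borders the span, lay at 2.83 TPM in the CYP19A1 and 3.21 TPM in the Esr1 model (0.18, adjusted p = 0.28).

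Of the 42 other genes that start within 2 Mb outside the span, 16 passed (38.1%), 12 higher in the Esr1 model. From 2 to 10 Mb 45 of 181 passed (24.9%), farther on chromosome 1 284 of 1109 (25.6%), and on other chromosomes 24.2%. Rescaled, 52.4% passed within 2 Mb and 39.8% on other chromosomes. Genes within 2 Mb that passed with large differences included Exo1, a DNA repair exonuclease (0.93), and the leukocyte receptor gene Slamf7 (0.92). They were followed by the sodium pump gene Atp1a4 (-0.70), Cd244a (0.65), Copa (0.65), Cd48 (0.61), Cd84 (0.60), Ncstn (0.59) and Dusp23 (0.52). None of the 44 other genes inside or within 2 Mb of the span separated the 24 libraries of each model, against 0.193% of all genes but the members. With so small a share, 44 genes are too few for this count to tell how far the difference extends. The median absolute difference of the 42 was 0.26, against 0.17 over all genes but the members.

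**Figure D5:**
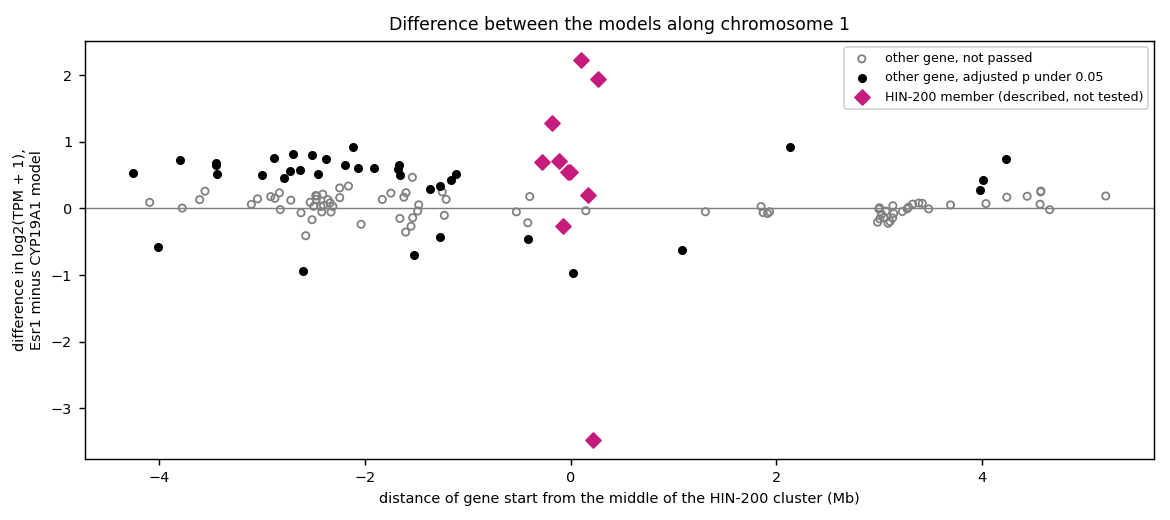
Difference in log2(TPM + 1), Esr1 minus CYP19A1 model (vertical axis), of genes within 5 Mb of the cluster, against the distance of their start from its middle in Mb (horizontal axis), with HIN-200 members as diamonds and other genes filled where limma's adjusted p was under 0.05. The other genes lie between -0.97 and 0.93, while Ifi202b is at -3.47 and Mndal at 2.23.

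Other interferon-inducible genes were mostly higher in the Esr1 model at 12 and 18 months, and few of them passed at 24 and 30 months. Over all libraries, of 33 tested type I interferon response genes 23 were higher there and 1 was lower (19.2% and 5.19% of all genes), with a median of 0.36 against 0.10 over all genes. Ifit3 lay at 9.24 against 2.96 TPM (1.31, limma adjusted p = 1.53e-10), Ifit1 at 3.33 against 1.10 TPM (0.96, adjusted p = 1.27e-08), Ifi44 at 0.87 and Ifit3b at 0.84 on the log2 scale. Ifi27l2a was the exception, at 490 against 631 TPM (-0.46, adjusted p = 0.0322). Rescaled, the median was 0.27 and 23 of the 33 passed, 22 of them higher. At 12 and 18 months alone 31 of the 33 were higher and 1 lower (44% and 2.17% of all genes, median 0.64 against 0.31). At 24 and 30 months alone 4 were higher and 0 lower (1.92% and 4.88% of all genes, median 0.11 against -0.10). Rescaled, 19 were higher and 1 lower at the younger ages (18.2% and 15.6% of all genes), and 7 were higher and 0 lower at the older ages (8.59% and 7.82%). Of 17 genes that interferon-gamma induces, 8 were higher in the Esr1 model over all libraries, among them Gbp9 (1.21), Gbp10 (1.16) and Gbp8 (0.80), and Gbp6 was lower (-1.08). At 12 and 18 months alone 14 were higher and 1 lower, with a median of 0.86. At 24 and 30 months alone 1 was higher and 1 lower, and the median was negative, at -0.26 (-0.13 rescaled). Whether the lists differed between the ages was not tested. The guanylate-binding protein genes, too, lie in clusters of similar copies.

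Of 14 interferon receptor and signalling genes 4 were higher in the Esr1 model, among them Ifnlr1 (0.55), Irf9 (0.48) and Ifngr1 (0.46), and 0 were lower (19.2% and 5.19% of all genes). Rescaled, 5 were higher and 2 lower (21.1% and 18.7% of all genes). As TPM at 12 and 18 months alone, 11 were higher and 0 lower (44% and 2.17% of all genes). At 24 and 30 months alone 0 were higher and 1 lower (1.92% and 4.88%). Rescaled, 6 were higher and 0 lower at the younger ages (18.2% and 15.6% of all genes). At the older ages 2 were higher and 1 lower (8.59% and 7.82%). The single interferon ligand tested did not pass. Of 18 genes of cytosolic DNA sensing and inflammasomes, 6 were higher and 0 lower (19.2% and 5.19% of all genes), and rescaled 9 were higher and 2 lower. In the younger libraries alone, as TPM, 13 were higher (44% of all genes), and in the older ones 0 passed (6.8% of all genes in either direction). Rescaled, 8 were higher and 1 lower in the younger libraries, and 1 was higher and 0 lower in the older ones. Pycard, the adaptor of the Aim2 inflammasome, lay at 11.3 against 5.61 TPM (0.89, limma adjusted p = 0.000969) and Casp1, its protease, at 13.3 against 7.90 TPM (0.66, adjusted p = 0.000683). Zbp1 (0.49) and Trex1 (0.45) were also higher.

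Markers of several cell types also differed between the models, over all libraries and as TPM unless stated. Of all genes 19.2% were higher in the Esr1 model and 5.19% lower, with a median of 0.10. Counts near the share over all genes are not read as a trait of a cell type. Of 16 macrophage markers 8 were higher in the Esr1 model and 0 lower, with a median of 0.43. The macrophage genes with the largest differences that passed were Lyz2 (1.00), Adgre1 (0.62), Aif1 (0.61) and C1qa (0.59). Of 10 T cell markers 6 were higher with a median of 0.43. Luminal epithelial markers were higher in 7 of 8 and basal ones in 5 of 7, endothelial ones lower in 4 of 8, and 0 of 8 B cell markers passed. Of 7 granulocyte and mast cell markers 4 were higher, of 6 dendritic cell markers 1 was higher and 2 were lower, and of 8 white adipocyte markers 2 were lower. None of the 8 fibroblast and 9 skeletal muscle markers passed. Rescaled, 7 of 8 endothelial, 4 of 8 white adipocyte and 2 of 8 fibroblast markers were lower, and 8 macrophage markers were higher and 1 lower. Of all genes 21.1% were then higher and 18.7% lower. At 24 and 30 months alone, as TPM, 0 macrophage and 0 T cell markers were higher and 1 macrophage marker was lower (1.92% and 4.88% of all genes). The medians were 0.16 for macrophages and 0.05 for T cells, against -0.10 over all genes. Rescaled, 2 macrophage markers were higher and 1 lower there (8.59% and 7.82% of all genes), with a median of 0.29. That median was 0.23 at 12 and 18 months. Of the 7 granulocyte and mast cell markers, 0 were higher and 3 lower at 24 and 30 months as TPM, and 1 and 3 rescaled. At 12 and 18 months 3 were higher and 0 lower as TPM (44% and 2.17% of all genes), and 2 and 0 rescaled. Over all libraries rescaled, 4 of them were higher and 2 lower. The macrophage markers summed to between 216 and 1010 TPM in the Esr1 and between 94.1 and 931 TPM in the CYP19A1 libraries. The part of these cells in the differences of the members was not tested.

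Within each model, members were related to the macrophage and type I interferon scores, which are mean log2 levels over those lists. Deviations of rescaled values from the group means were used over 24 libraries, with two-sided permutation tests within groups, and 40 relations were adjusted together. In the Esr1 model 5 members were positively related to the interferon score. They were Ifi204 (r = 0.66, rho = 0.64, permutation p = 0.00265, adjusted p = 0.0297), Ifi207 (r = 0.65, rho = 0.69, adjusted p = 0.0297), Ifi206 (r = 0.65, rho = 0.68, adjusted p = 0.0297), Ifi213 (r = 0.61, rho = 0.65, adjusted p = 0.0494) and Ifi203 (r = 0.60, rho = 0.61, adjusted p = 0.032). Without the 2 libraries farthest from the median score these r were 0.69, 0.67, 0.59, 0.57 and 0.64. With the macrophage score 0 of 10 passed there.

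In the CYP19A1 model 3 members followed the macrophage score and 0 the interferon score. Ifi202b had r = 0.80 and rho = 0.76 (permutation p = 0.00098, adjusted p = 0.0297), and r = 0.70 without the 2 farthest libraries. Ifi205 had r = 0.68 and rho = 0.66 (adjusted p = 0.032), and r = 0.54 without those libraries. Ifi209 had r = 0.51 and rho = 0.54 (adjusted p = 0.032), and r = 0.61 without them. Whether these relations differed between the models was not tested.

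The genes whose levels over the 48 libraries were most like those of each member were sought among all other genes tested, by Pearson r of log2(TPM + 1). As both models enter, a member that differs between them finds genes that differ too, so these r restate in part the contrast used to choose the members, and they are a description. For Ifi202b they were the pseudogene Gm8615 on chromosome 5 (r = 0.978), the noncoding RNA Gm7292 on chromosome 6 (r = 0.976) and the pseudogene Gm11868 on chromosome 4 (r = 0.975). For Mndal they were Lipo3 (r = 0.946), Metap1d (r = 0.943) and Rpl35a (r = 0.931), and for Ifi205 Lipo3 (r = 0.897), Tagap1 (r = 0.880) and Rps18 (r = 0.871). Within a model the same r were lower, at 0.491 to 0.735 in the Esr1 and 0.606 to 0.809 in the CYP19A1 libraries for Ifi202b, and at 0.235 to 0.410 and 0.617 to 0.701 for Ifi205. Gm7292 lay at 0.294 TPM in the Esr1 and 12.6 TPM in the CYP19A1 model. For Ifi203, which overlapped between the models, they were Trim34a (r = 0.925), Irf2 (r = 0.919) and Trim30a (r = 0.911), with r from 0.866 to 0.916 within the Esr1 and 0.912 to 0.967 within the CYP19A1 model. For Ifi204 they were Tmod2, Vmp1 and Mfap1b (r from 0.844 to 0.892), and for Ifi207 Cebpd, Gm8369 and Vmp1 (0.792 to 0.829). Ifi206 and Ifi213 both had Ifit1 among theirs (r = 0.896 and 0.873), beside Apol9b and Ms4a4b, and 9430037G07Rik and H2-Q5. Ifi209 had Slamf7 (r = 0.857), BE692007 and Ms4a4b, and Ifi208 had Gm37091, Cd5 and Ppp1r16b (0.709 to 0.749). Apart from Slamf7, 1.84 Mb away, and Gm37091, 134.4 Mb away, none of these genes is on chromosome 1.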

How the data were processed

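RNA of 48 thoracic mammary glands was read as ribosomal RNA-depleted, stranded single-end libraries of 75 bases, per the labels' protocols. The values are TPM deposited by the authors. Tools named in the submitters' processing notes are RSEM 1.3.1, STAR 2.7.9a, Trim Galore 0.6.5 and FastQC 0.11.9, with the mm10 genome. The annotation release and strand setting are not given in the sources used here. Of the gene identifiers 55394 matched GENCODE M21. TPM keep no library size.

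The 20209 genes that reached 1 TPM in 3 or more libraries were tested as log2(TPM + 1) in 1 fit of 16 group means with limma 3.58.1 in R 4.3.3 (intensity trend, two-sided, adjusted over all genes). The fit was tested on simulated data. Rescaled TPM were divided by median-of-ratios factors over 20045 genes above 0 in every library. Permutation tests drew 100000 resamples within groups. Named besides all 10 members were genes inside the span, up to 10 called genes within 2 Mb, up to 4 called genes per list, and the 3 genes most like each member. Some genes that this rule names are not reported here. The members, lists, comparisons and alternatives were chosen with earlier results of these data known. The within-library ratios and shares, the counts of shared 75-base windows, the list counts by age and rescaled, and the r within models were added after the values were seen. A planned comparison of the protein sequences was not made. Alternatives were a pseudocount of 0.1, no filter, rescaled TPM, leaving out the 9 libraries rich in ribosomal RNA-like genes or each library in turn, the replicate number as a block, and fits of the compared groups alone.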

Additional observations from a re-analysis of the deposited data

How the results depend on the processing

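All 16 counts of members past the test for induction or age stayed at 0 in 95 of 95 settings other than leaving out single libraries, and in 167 of 168 that left out 1. The exception is 1 week of induction in 12-month CYP19A1 glands, with a range of 0 to 3. Without the 9 libraries rich in ribosomal RNA-like genes that comparison has no induced library left, and the averages used the remaining groups. The genes called between the models numbered 4922, and 8043 rescaled. As TPM they were 9330 in 12- and 18-month libraries alone (8892 higher in the Esr1 model and 438 lower) and 1374 in 24- and 30-month libraries (388 and 986). Also as TPM, they were 596 in uninduced and 2885 in induced groups, and 4135 to 6586 without 1 library. The uninduced set has fewer pairs of groups than the induced set. The induced set also holds the 12-month CYP19A1 group whose libraries are all rich in ribosomal RNA-like genes. The counts of these sets are therefore not compared. Neighbours called, with the span included, were 7 of 14 within 1 Mb (50%), 17 of 44 within 2 Mb (38.6%) and 36 of 118 within 5 Mb (30.5%). Of all genes but the members 24.3% were called.

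Of 560 recomputed differences of single members between the models 2 reversed, both for Ifi203: -0.10 without the 9 libraries and -0.22 in 24- and 30-month libraries (0.20 overall and 0.62 in 12- and 18-month libraries). The cause was not tested. With a pseudocount of 0.1, scarce members differed more: Ifi202b by -4.94, Ifi213 by 3.10, Ifi206 by 2.21, Ifi209 by 1.26 and Ifi208 by -0.69. In younger and older libraries Ifi206 differed by 0.93 and 0.46, and Ifi213 by 1.61 and 0.94. Related to scores as deposited TPM, members past the test numbered 1 (Esr1, macrophages), 8 (CYP19A1, macrophages) and 6 (CYP19A1, interferon), against 0, 3 and 0 rescaled. Libraries shared only a replicate number: deviations of same-numbered libraries had a median r of 0.01 over 360 pairs, 109 of them over 0.1. With the replicate block all 16 member counts stayed at 0 and 4978 genes were called between the models. Of the gene lists, and chosen after seeing the data, rescaled counts called by limma moved to 7 (interferon receptors), 11 (DNA sensing), 7 (endothelium), 2 (fibroblasts) and 4 (white adipocytes). Of all genes 39.8% were then called. The lists have the sizes given above, and each count takes both directions together. As TPM, in 12- and 18-month libraries alone, the counts moved to 15 (interferon-gamma), 1 (ligands), 11 (receptors), 13 (DNA sensing), 0 (endothelium), 1 (fibroblasts) and 0 (white adipocytes). Rescaled, these were 11, 0, 6, 9, 8, 1 and 6 in that order. Of all genes 46.2% were called at these ages as TPM and 33.7% rescaled. As TPM, in 24- and 30-month libraries alone, they moved to 4 (type I interferon), 2 (interferon-gamma), 1 (receptors), 0 (DNA sensing), 1 (macrophages), 0 (T cells), 1 (fibroblasts), 1 (white adipocytes), 1 (luminal) and 0 (basal). Rescaled, these were 7, 5, 3, 1, 3, 0, 1, 0, 4 and 5 in that order. Of all genes 6.8% were called at these ages as TPM and 16.4% rescaled. The 1 fibroblast marker called at the younger ages was higher in the Esr1 model, and the 1 called at the older ages was lower. Counts near the share over all genes are not read as a trait of a list. Depth is unknown, so values near 0 carry no interval.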
